A study of Mus musculus with 40 samples.

Results

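In mature follicular B cells, 204 autosomal 100 bp tiles had a high methylation level when Tet2 and Tet3 were both deleted, while the group mean of each single knockout stayed close to wild type. They are called DKO-only tiles here, a name that describes follicular group means and nothing else. Each had a value in all 12 follicular libraries, a double-knockout (DKO) mean at least 30 percentage points above the wild-type (WT) mean, and every DKO value above every WT value. The Tet2KO and Tet3KO means each lay less than 10 points above WT, and the mean of pro-B WT cells, over 2 or more values, was at most 50%. Of 971845 tiles in the table, 259515 autosomal tiles had the values needed (eligible tiles), and 120176 of these met the pro-B WT ceiling (low tiles). The follicular DKO difference with no overlap was found at 1755 eligible tiles, 0.676% of them, and at 1221 low tiles. The DKO-only tiles were 16.7% of those 1221. At 545 others (44.6%) both single knockouts were raised by 10 points or more, at 381 (31.2%) only Tet3KO was, and at 91 (7.45%) only Tet2KO was. The tiles were chosen by follicular values of all 4 genotypes and by the pro-B WT ceiling, and they were 0.0786% of eligible tiles. For that reason, follicular levels are given as a description without a test, and the pro-B knockout libraries, which the choice did not use, carry the comparisons.

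The levels come from reduced representation bisulfite sequencing (RRBS), an assay that samples CpG-rich fragments released by a restriction enzyme, in 24 libraries that form 8 groups of 3. Pro-B cells, an early precursor stage, and follicular B cells, the resting mature stage, came from C57/bl mice that were WT, knockout for Tet2 (Tet2KO), knockout for Tet3 (Tet3KO) or knockout for both (DKO). Per the labels the knockouts were inducible under the MB1 promoter, which is active in the B lineage, so other cells of these mice are not described as lacking the genes. Ages were 6 to 8 weeks for WT and Tet2KO, 7 weeks for Tet3KO and 6 to 7 weeks for DKO. All Tet2KO libraries were from females, and each other group had 2 males and 1 female. Libraries carry the running numbers of their titles: in pro-B cells 1 to 3 are WT, 4 to 6 Tet2KO, 7 to 9 Tet3KO and 10 to 12 DKO, and in follicular cells 13 to 15, 16 to 18, 19 to 21 and 22 to 24 follow the same order. The labels do not say whether a mouse gave more than 1 library, so p-values measure the spread between these libraries only. Each pro-B library matches the follicular library numbered 12 higher in genotype, sex and age, so both stages may come from the same mice; the pro-B libraries are separate measurements, but separate animals cannot be assumed. The deleted genes and the cell type markers were not examined, since only methylation levels were analysed.

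TET enzymes are dioxygenases that oxidise 5-methylcytosine to 5-hydroxymethylcytosine and further products, from which the unmodified base can be restored. Tet2 and Tet3 are the family members with known roles in B-cell development, where they act at enhancers and other regulatory elements that lose methylation as the lineage matures. Where either enzyme is sufficient at a site, deletion of one gene would leave the level low and deletion of both would not, and the follicular rule was written for that pattern. The level of a tile is the percentage of methylated cytosine calls within it, and the read depth behind a level is unknown. Differences between levels are in percentage points.

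Libraries had values for 24600 to 631415 tiles, and this number is the only measure of depth at hand. Pro-B Tet3KO library 8 had the fewest, with a value at 8 of the 204 DKO-only tiles, so Tet3KO in pro-B cells rests on libraries 7 and 9 at nearly all of them. Pro-B DKO libraries 10, 11 and 12 had 556257, 447477 and 273728 tiles, and 192, 179 and 127 of the DKO-only tiles. All 12 follicular libraries had values at all 204, as the rule demanded.

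The 204 tiles fell into 177 regions when tiles within 500 bp were joined. There were 155 single tiles, 17 regions of 2 tiles and 5 of 3. Every autosome held some. Chromosome 5 held 21 tiles in 19 regions, chromosome 8 held 18 in 18 regions, and chromosome 10 held 16 in 14. Relative to the number of eligible tiles, chromosome 19 had the highest density with 1.91 per 1000 (15 tiles in 11 regions) and chromosome 6 the lowest with 0.39 (5 tiles), beside 0.79 over all autosomes. On the X and Y chromosomes 1 of 6237 eligible tiles met the rule. Coordinates are those of the files, taken as mouse build mm9, and the genes and sequence at these positions were not analysed here.

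Tile density around a position separates CpG-dense islands, where RRBS fragments crowd together, from isolated CpG-rich fragments. The DKO-only tiles had a median of 4 tiles of the table within 1 kb (quartiles 3 and 7), beside 6 for all eligible tiles (3 and 10) and 10 for low tiles (7 and 13). Of the DKO-only tiles, 126 (61.8%) had 5 or fewer tiles within 1 kb, beside 45.1% of eligible and 17.9% of low tiles. The 1017 low tiles with the follicular DKO difference and a raised single knockout had a median of 4 as well, with 65.0% at 5 or fewer. Both sets of tiles with the follicular DKO difference thus lay in sparser surroundings than low tiles in general; their difference from each other was not tested.

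In follicular cells the mean level over the 204 tiles was 12.7%, 11.9% and 11.4% in the WT libraries 13 to 15. The Tet2KO libraries 16 to 18 were at 13.7%, 14.2% and 13.8%, and the Tet3KO libraries 19 to 21 at 15%, 18% and 13.9%. The DKO libraries 22 to 24 were at 59.6%, 51.3% and 58.2%. All of these values follow from the choice of tiles. The tile means in DKO ran from 30.5% to 100% with a median of 53.4%, so most of these tiles had an intermediate mean level in the DKO libraries. Such means do not tell how the methylation was spread over cells or alleles, and the loss of both enzymes was not examined. The DKO minus WT difference had a median of 40.1 points, a range of 30.1 to 93.1 and an interquartile range of 33.0 to 49.6, and thus lay close to the threshold for many tiles. Just inside the threshold were tiles at chr19:6507301-6507400 (30.08 points), chr8:122794601-122794700 (30.12) and chr5:100778201-100778300 (30.16). Just outside were chr11:119053001-119053100 (29.93), chr8:122740901-122741000 (29.92) and chr2:166445701-166445800 (29.87).

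The follicular DKO libraries did not rank the tiles alike. Library 23 was the lowest of the DKO libraries at 101 of 204 tiles and library 22 the highest at 85. The range between the DKO libraries of one tile had a median of 24.5 points and exceeded 30 points at 66 tiles. In WT, 20 tiles had a mean of 0 and 124 were under 10%, with a median of 6.08%.

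**Figure D1:**
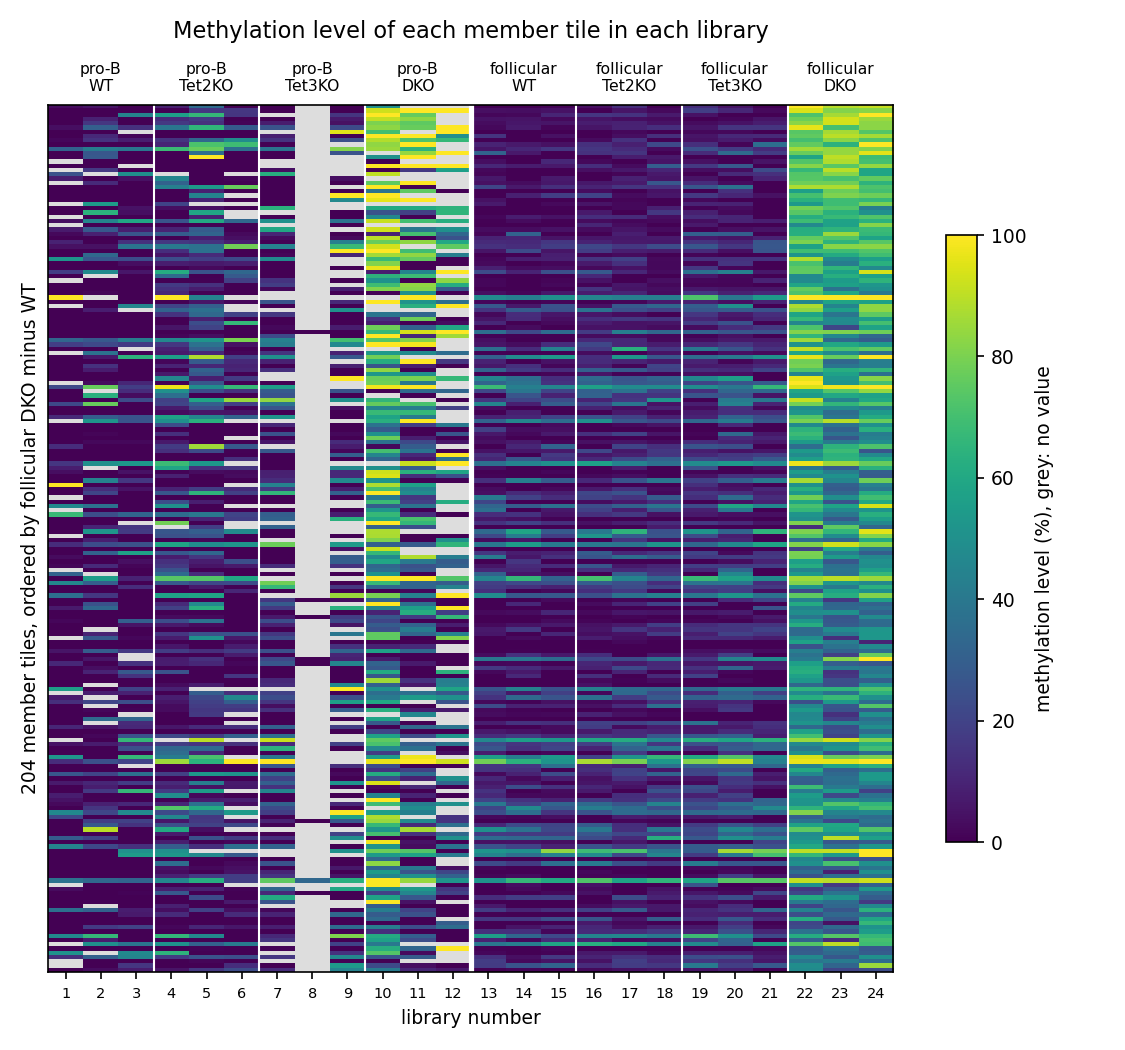
Methylation level (colour, percent) of the 204 DKO-only tiles (rows, ordered by the follicular DKO minus WT difference) in 24 libraries (columns, by running number), with grey where a library has no value. Follicular DKO columns 22 to 24 are high by the rule; pro-B DKO columns 10 to 12, which the rule did not use, are high at many of the same tiles, with more missing values in 12.

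To measure the follicular pattern in libraries that took no part in the choice, the rule was applied with 1 follicular library left out and the level of that library was read at the tiles so chosen. Left-out DKO libraries 22, 23 and 24 had mean levels of 51.8%, 38.0% and 49.5% at 235, 407 and 245 tiles. These gave a mean of 46.4% ± 7.43 (SD, n = 3), beside 58.6% in the DKO libraries that made the choice, and were on average 30.2 points above WT. The left-out library lay above every WT library at 88.5%, 68.8% and 86.1% of the tiles, with library 23 the lowest. A left-out WT library lay above both other WT libraries at 34.6%, 27.6% and 26.6% of its tiles. These WT shares were read against fewer WT libraries and at other tiles, so the shares are not like for like. In both cases the WT libraries set against the left-out library had made the choice. Shares over all eligible tiles are not given here. Left-out DKO libraries were thus lower than those that made the choice, by most in library 23, and remained above the left-out WT libraries.

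Left-out single-knockout libraries lay further from WT than those that set the rule. Left-out WT libraries had a mean of 13.1% ± 0.88 (SD, n = 3) at 217 to 222 tiles. Left-out Tet2KO libraries were at 17% ± 1.21 (n = 3), 3.89 points above WT, where the choosing Tet2KO libraries were at 14.8%. Left-out Tet3KO libraries were at 20.5% ± 1.96 (n = 3), 7.96 points above WT, where the choosing ones were at 15.6%. A left-out Tet3KO library was at least 10 points above the WT mean at 29.3% to 43.5% of tiles, a left-out Tet2KO library at 18.4% to 24.5%, and a left-out WT library at 6.31% to 12.4%. The ceiling of 10 points was thus not kept by every tile in a left-out library. For these shares too, those over all eligible tiles are not given here.

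In pro-B cells the DKO-only tiles had a mean level of 7.30%, 11.3% and 9.69% in WT libraries 1 to 3. Tet2KO libraries 4 to 6 were at 17.5%, 19.8% and 12%, and Tet3KO libraries 7 and 9 at 16.5% and 19.7%. Library 8 was at 4.17% over its 8 tiles. DKO libraries 10 to 12 were at 55.7%, 37.3% and 35.0%. Every DKO library thus lay above every library of the other pro-B genotypes, and libraries 4 to 7 and 9 lay above every WT library. The group means were 9.43% ± 2.01 for WT, 16.5% ± 4.01 for Tet2KO and 42.6% ± 11.4 for DKO (SD, n = 3 each), a DKO minus WT difference of 33.2 points. Over all 120176 low tiles the same means were 5.16%, 7.18% and 7.38%, a difference of 2.23 points. The pro-B WT ceiling took part in the choice. Without it 228 tiles qualified, with pro-B means of 15.3% in WT and 44.9% in DKO. At those 228 tiles Tet2KO library 6, at 15.2%, lay below WT libraries 2 and 3, at 16.9% and 15.8%. Libraries 4, 5, 7 and 9 stayed above every WT library.

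**Figure D2:**
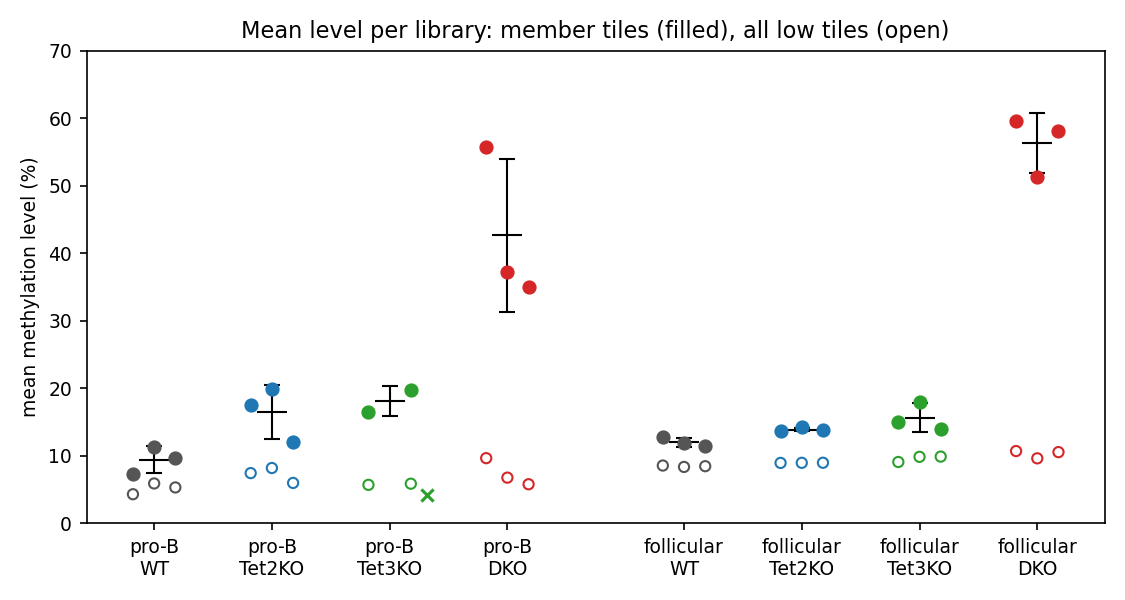
Mean methylation level (percent, vertical axis) per library for the DKO-only tiles (filled points) and for all low tiles (open points), by cell stage and genotype, with black bars for mean and SD over libraries; the cross is pro-B Tet3KO library 8, which had 8 of the tiles and is left out of the bar. Pro-B DKO libraries, at 35.0% to 55.7%, lie above all other pro-B libraries, whose highest value is 19.8%.

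The 3 pro-B DKO libraries differed, and their order followed the number of tiles with a value, with library 10 highest in both. Among 115 tiles with a value in all 3, library 10 was the highest at 67, and its mean was 51.6%, beside 33.9% in library 11 and 33.3% in library 12. The part of depth in this was not tested. Over the 78 tiles that all 23 remaining libraries measured when library 8 was set aside, the pro-B means were 6.54% in WT, 11.1% in Tet2KO, 15.1% in Tet3KO libraries 7 and 9, and 38.0% in DKO. WT remained the lowest group and DKO the highest over these tiles.

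Per tile, the pro-B DKO minus WT difference could be computed at 183 of the 204 tiles with 2 or more values in each group. Its median was 34.1 points, with an interquartile range of 16.7 to 51.9 and a range of -27.8 to 100. It was above 0 at 171 tiles, at 0 at 3 and below 0 at 9, and it reached 30 points at 99. Over all 242295 eligible tiles tested the median was 0, with 106181 above 0, 79930 below 0 and 5706 at 30 points or more. The DKO values lay above all WT values at 95 of 183 tiles (51.9%), beside a background of 5.13% of eligible tiles and 5.0% of low tiles. In the opposite direction the count was 0, beside 3.15% of eligible and 0.796% of low tiles. Tiles with a pro-B WT mean of 0 could not be lower. They were 77 of all 204 DKO-only tiles and 63521 of 120176 low tiles. The DKO mean was at least 20 points above WT at 132 of 183 (background 5.17%).

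Set against the single knockouts, the pro-B DKO was likewise the higher group at most of these tiles. The median difference from Tet2KO was 26 points over 180 tiles, with 163 above 0, and from Tet3KO 23.4 points over 131 tiles, with 106 above 0. Among eligible tiles 105787 of 240377 were above 0 against Tet2KO and 73003 of 178579 against Tet3KO. DKO values lay above all Tet2KO values at 67 of 180 tiles (37.2%, background 4.91%) and below them at 2 (background 3.14%). They lay above all Tet3KO values at 45 of 131 (34.4%, background 6.05%) and below them at 1 (background 4.74%). The DKO mean was at least 20 points above Tet2KO at 109 of 180 tiles (background 2.67%) and above Tet3KO at 74 of 131 (background 4.37%). Without library 10 the median differences from WT, Tet2KO and Tet3KO were 23.8, 18.3 and 11.1 points. With centred libraries that from Tet3KO was 15.4, where the median over all tiles tested was -7.28. These 3 comparisons share the DKO libraries and are not independent of one another.

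Single tiles seldom passed a test across the whole table. In limma with Benjamini-Hochberg adjustment, a tile was called at an adjusted p under 0.05 and a difference of at least 20 points. Pro-B DKO was called higher than WT at 6 of 183 DKO-only tiles (background 0.0161% of 242295 eligible tiles), higher than Tet2KO at 5 of 180 (background 0.00832%) and higher than Tet3KO at 4 of 131 (background 0.0342%). Limma called 0 of them lower in any of the 3 comparisons, beside backgrounds of 0.00537%, 0.00499% and 0.00728% of eligible tiles. With backgrounds this small, 0 lower calls do not set these tiles apart. Those lower at an unadjusted p under 0.05 numbered 0, 1 and 0, and their share over all tiles is not given here. At an unadjusted p under 0.05, limma had DKO higher than WT at 85 of 183 (background 3.04%), than Tet2KO at 60 of 180 (background 2.09%) and than Tet3KO at 43 of 131 (background 2.75%). The number of calls depended on which libraries estimated the spread. With all 24 libraries in the fit 42 DKO-only tiles were called higher than WT, beside 893 of all 242295 tiles tested. In the main fit these numbers were 6 and 39. The fit of 24 includes the follicular libraries that chose the tiles, so its count is not independent of the choice. With only WT and DKO in the fit 0 DKO-only tiles and 5 of all tiles were called. With single libraries left out the number ran from 5 to 24, beside 126 to 888 of all tiles. Without DKO libraries 10, 11 and 12 it was 14, 24 and 14, beside 144, 299 and 126 of all tiles.

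The tiles called against WT included a pair of neighbours at chr5:123774301-123774500 and a tile inside a region of 3 on chromosome 7. The tile at chr7:118067201-118067300 was at 0 in WT libraries 1 to 3 and Tet3KO libraries 7 and 9, at 0, 16.2% and 16% in Tet2KO, and at 92.3%, 100% and 100% in DKO. Its DKO minus WT difference was 97.4 points ± 6.54 (SE, limma, Benjamini-Hochberg adjusted p = 0.00716), and it was also called against Tet2KO (adjusted p = 0.00989) and Tet3KO (adjusted p = 0.0150). The tile at chr7:139883901-139884000 was at 0 in all 9 pro-B libraries that were not DKO and at 66.7%, 93.8% and 100% in DKO, with a difference of 86.8 points ± 7.24 (SE, limma adjusted p = 0.00807). In follicular cells this tile was not empty without the deletions: its WT libraries were at 36.7%, 22.2% and 34.8%. The tile at chr5:147490601-147490700 was at 0 in WT and in Tet3KO libraries 7 and 9, at 3.41%, 5.83% and 5.19% in Tet2KO, and at 67.6% and 66.7% in DKO libraries 10 and 11, with no value in library 12. Its difference was 67.1 points ± 1.13 (SE, limma adjusted p = 1.94e-05). The remaining call was chr16:29667701-29667800, at 0, 0 and 5% in WT, at 3.76%, 4.20% and 0 in Tet2KO and at 60.9%, 61% and 64.7% in DKO, with its only Tet3KO value at 64% in library 7. At this last tile the Tet3KO value lay within the DKO values, unlike in follicular cells, where Tet3KO was at 0 to 3.33%.

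Deletion of a single gene gave smaller pro-B differences. The Tet2KO minus WT difference had a median of 4.48 points over 198 tiles and the Tet3KO minus WT difference a median of 6.32 points over 139, beside 0 for eligible tiles in both. These medians depended on single libraries and settings: that of Tet2KO was 2.59 without library 5 and 8.90 with sex as a covariate, and that of Tet3KO was 1.83 without library 7 and 2.11 without library 9. Tet2KO values lay above all WT values at 29 of 198 tiles (background 4.65%) and Tet3KO values at 32 of 139 (background 5.91%). The Tet2KO mean was at least 10 points above WT at 65 of 198 (background 11.1%) and the Tet3KO mean at 52 of 139 (background 8.68%). By limma 0 were called in either comparison (backgrounds 0.009% and 0.0148% higher), with 10 and 5 higher at an unadjusted p under 0.05 (backgrounds 2.25% and 2.41%). Both single-knockout means were within 10 points of WT at 61 of the 131 tiles with values in all groups (46.6%), beside backgrounds of 78.5% of eligible and 87.2% of low tiles. When each library was centred on tiles of intermediate level, the Tet2KO median turned to -1.31 points, while the DKO minus WT median was 26.7 and the Tet3KO median 6.62. The medians over all tiles tested were then -5.59, -7.04 and 0.23 points in the same order.

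The whole follicular pattern was then read in pro-B cells, over the 131 tiles with 2 or more values in all 4 pro-B groups. A DKO difference of at least 30 points with no overlap with WT was found at 52 of them (39.7%, background 0.94% of eligible and 1.18% of low tiles). At 22 of the 52 both single knockouts were less than 10 points above WT, at 14 only Tet3KO was 10 points or more above (background 0.119%), at 3 only Tet2KO was (background 0.166%), and at 13 both were (background 0.547%). The 22 tiles were 16.8% of the 131, beside a background of 0.108% of eligible and 0.154% of low tiles. Among the 218 tiles with that pro-B difference that had a raised single knockout in follicular cells, both pro-B single knockouts were under 10 points at 18 (8.26%) and both at or above 10 points at 117 (53.7%). The corresponding shares of the DKO-only tiles were 42.3% and 25%. Whether these shares differ was not tested.

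The level in DKO can also be set against the sum of the single differences, which asks whether loss of both genes exceeded what the separate losses would add up to. DKO minus Tet2KO minus Tet3KO plus WT was above 0 at 98 of 131 DKO-only tiles in pro-B cells (background 42.6%), with a median of 16.4 points beside 0 for eligible tiles. Without DKO library 10 that median was 5.14 points. As an interaction term in limma it was called higher at 2 of 131 (background 0.0135%) and lower at 0 (background 0.00673%). At an unadjusted p under 0.05 limma had it higher at 20 (background 1.76%) and lower at 1, with no background given for the lower direction. The 2 were chr5:147490601-147490700, at 62.3 points ± 2.31 (SE, Benjamini-Hochberg adjusted p = 0.000447), and chr7:139883901-139884000, at 86.8 points ± 11 (SE, adjusted p = 0.0458). The number called was 1 on the logit scale, 0 with centred libraries and 1 to 9 with single libraries left out. Over all 178283 tiles tested these numbers were 41, 0 and 29 to 1222.

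The tiles with a raised follicular single knockout served as the nearest comparison. Where both single knockouts were raised in follicular cells, the pro-B group means were 24.5% in WT, 42.4% in Tet2KO, 40.3% in Tet3KO libraries 7 and 9, and 59.0% in DKO. Where only Tet3KO was raised they were 19.1%, 28.0%, 31.7% and 48.2%. Where only Tet2KO was raised they were 19.7%, 38.4%, 33.7% and 53.7%. The DKO minus WT differences of these classes, 34.5, 29.2 and 34 points, were of the size found at DKO-only tiles (33.2 points), whereas the WT levels of the DKO-only tiles were the lowest of the 4 classes in each WT library. The classes overlap in their libraries, and the differences between them were not tested.

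**Figure D3:**
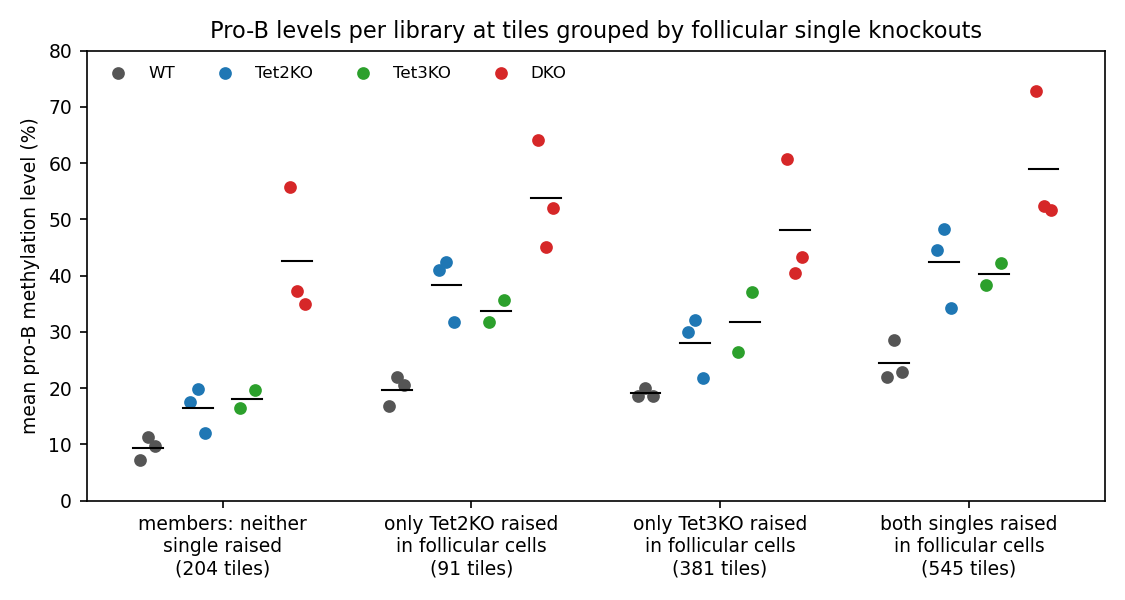
Mean pro-B methylation level (percent, vertical axis) per library, with library 8 left out, at the low tiles with the follicular DKO difference, split by which follicular single knockout was raised; colours are pro-B genotypes and bars are group means. The DKO-only tiles (left) have the lowest WT libraries (7.30% to 11.3%) and single-knockout libraries between 12% and 19.8%, while DKO libraries are the highest in all 4 classes.

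Pearson's r between the follicular and pro-B DKO minus WT differences was 0.56 and Spearman's rho 0.49 over 183 tiles; the points share their libraries, and tiles are not independent replicates. With the tiles split evenly in 3 by follicular difference, the first class (30.1 to 35.6 points, 61 tiles) had a median pro-B difference of 24.4 points, the next class (35.6 to 44.4 points, 61 tiles) one of 28.8 points, and the last (44.4 to 81.8 points, 61 tiles) one of 58.7 points.

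**Figure D4:**
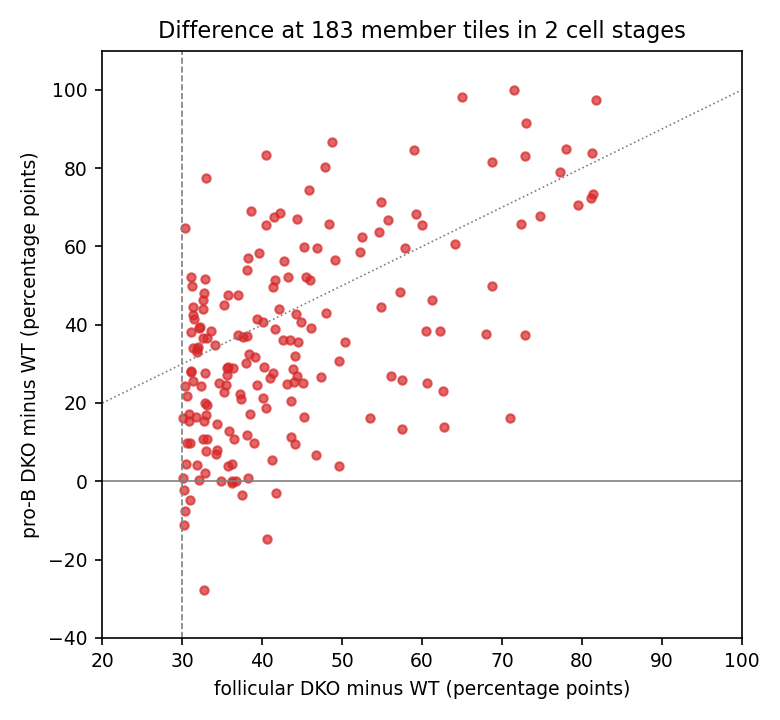
DKO minus WT difference (percentage points) in follicular cells (horizontal axis) and in pro-B cells (vertical axis) at the 183 DKO-only tiles with 2 or more pro-B values in both groups; the dashed line is the follicular threshold of 30 points, the dotted line marks equal differences and the solid line marks 0. Of the points, 171 lie above 0 and 9 below, beside 106181 and 79930 of 242295 eligible tiles (not shown).

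The tiles also varied in their starting level. In pro-B WT 139 of the 204 were under 10%, 46 were between 10% and 30% and 19 were between 30% and 50%, and 77 had a mean of 0. In the first class the pro-B means were 2.02% in WT, 10.2% in Tet2KO, 12.9% in Tet3KO libraries 7 and 9, and 38.1% ± 12.3 in DKO (SD, n = 3). In the second they were 19.7%, 26.9%, 25.6% and 50.1% ± 9.44. In the third they were 38.4%, 41.6%, 45.4% and 59.2% ± 20.5, where the DKO libraries spanned 35.8% to 74.1% and overlapped WT. The first class holds by choice the tiles whose WT values happened to be low, so its difference from WT follows in part from that choice. Tiles with 5 or fewer tiles within 1 kb had a pro-B DKO mean of 41.1% ± 11.9 and those with more had 45.1% ± 11.2 (SD, n = 3 each), a gap smaller than the spread between libraries.

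Regions of 2 or 3 DKO-only tiles held 49 tiles, with a pro-B mean of 6.29% in WT and 48.1% ± 16.8 in DKO, beside 10.5% and 41% ± 9.65 for the 155 single tiles (SD, n = 3). The 12 with the largest follicular difference and the 8 leading single tiles were examined library by library, with the mean over the tiles of a region as its level. The follicular levels that follow were used for the choice, and the pro-B knockout levels were not.

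At chr7:118067101-118067400, a region of 3 tiles, pro-B WT was at 3.25%, 9.09% and 4.60%, Tet2KO at 5.45%, 22.4% and 8.13%, Tet3KO at 0 and 22.8%, and DKO at 84.5%, 89.1% and 86.7%. Follicular DKO was at 77% to 84% and all other follicular libraries at 2.94% to 18.6%. All DKO libraries of both stages were high and no other library came near them. At chr14:34003001-34003400, also of 3 tiles, pro-B WT was at 0.57%, 4.92% and 2.66%, Tet2KO at 4.95%, 14.9% and 16.3%, Tet3KO at 5.32% and 23.9%, and DKO at 82.3%, 68.3% and 83.3%. Its follicular DKO level was lower, at 54.2% to 62.8%, with the other follicular libraries at 0 to 5.2%. Here the pro-B DKO libraries all lay above the follicular ones.

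At chr5:123774301-123774600, another region of 3 tiles, pro-B WT was at 10.5%, 22.4% and 13.1%, Tet2KO at 32.4%, 35.9% and 12.6%, and Tet3KO at 15.1% and 31.1%. DKO was at 85.3% and 74.3% in libraries 10 and 11, with no value in 12. The single knockouts overlapped WT and stayed well under DKO. At chr13:55628701-55628900, of 2 tiles, pro-B WT was at 0 to 2.74%, Tet2KO at 0.53% to 4.47%, Tet3KO at 17.5% and 11.5%, and DKO at 96.2%, 57.5% and 47.6%. Both Tet3KO libraries lay above all WT and Tet2KO libraries, and follicular DKO was at 43.3% to 50.6%.

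The DKO libraries differed more within other regions. At chr17:83945501-83945900, of 3 tiles, pro-B WT was at 0 in all libraries, Tet2KO at 2.33%, 7.83% and 0, Tet3KO at 11.9% and 2.5%, and DKO at 87.8%, 19.3% and 62.9%. In follicular DKO it was at 63.6%, 30.5% and 40.5%. At chr19:37546001-37546200 pro-B WT, Tet2KO and Tet3KO lay between 0 and 5.77% and DKO at 69.1%, 87.5% and 25%. At both regions every DKO library was above every other pro-B library, with a wide range among them. At chr16:32200401-32200600 the pro-B DKO values were 90% in library 10 and 0 in library 11, with the other pro-B libraries at 0 to 17.2%, so the DKO libraries did not hold together.

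In 2 regions the single knockouts were high in pro-B cells. At chr12:101586701-101586900 pro-B WT was at 2.28%, 2.33% and 19.1%, Tet2KO at 20.1%, 41.1% and 78.4%, Tet3KO at 21.9% and 83.7%, and DKO at 96.6% in library 10 and 75% in library 12. At chr3:88915701-88915900 pro-B WT was at 0 in all libraries, Tet2KO at 11.6%, 54.5% and 34.4%, Tet3KO at 0 and 100%, and DKO at 91.7% and 84.6%. Single-knockout libraries there reached the DKO level, while in follicular cells the single knockouts of these regions lay at 2.78% to 31.2% and DKO at 64% to 86.4%.

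In 3 further regions, as at chr16:32200401-32200600, no more than 1 pro-B DKO library had a high level. At chr19:8644401-8644600 pro-B DKO was at 0, 0 and 50%, with WT at 0 to 0.74%, while follicular DKO was at 58.4% to 61.1%. At chr19:47044601-47044800 pro-B DKO was at 49.5%, 0 and 1.85%, with Tet2KO at 21.9%, 8.89% and 3.98%, while follicular DKO was at 32.8% to 60.7%. At chr11:5058301-5058500, which had the largest follicular difference of the regions (81 points, DKO at 80.1% to 86.8%), the only pro-B DKO value was 50%, and Tet2KO was at 27.2%, 17.4% and 0.70%. That value lay above pro-B WT, which was at 2.20% to 5.33%, and above all Tet2KO libraries.

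Among the single tiles with the largest follicular differences, chr8:36768801-36768900 was at 100% in all 3 pro-B DKO libraries and at 0 in all 5 WT and Tet2KO libraries with a value, with no value in Tet3KO. The tile at chr11:44307101-44307200 was at 83.2%, 76.8% and 100% in pro-B DKO, at 3.74%, 30.2% and 14.1% in WT, at 39.1%, 65.2% and 28.4% in Tet2KO and at 25.8% and 22.5% in Tet3KO. At chr6:53398901-53399000 DKO was at 100% and 76.5%, and Tet2KO at 56.1%, 66.7% and 15.4% with WT at 0, 0 and 44.8%. DKO had the highest mean of the pro-B groups with a value at all 3 tiles, and at the last 2 Tet2KO lay between WT and DKO. At chr10:116996501-116996600 the WT and Tet2KO libraries with a value were at 0 and DKO libraries 10 and 12 at 70% and 100%, and the only Tet3KO value was 95.7% in library 9. That Tet3KO value lay within the DKO range, while the follicular Tet3KO libraries were at 0 to 2.08%.

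The other 4 leading single tiles had few or scattered pro-B values. At chr15:66917801-66917900 DKO was at 50% and 100%, and Tet2KO library 5 was also at 100% with libraries 4 and 6 at 0. At chr17:47892901-47893000 DKO was at 0, 16.7% and 56.5%, within reach of WT library 2 at 16.7%. At chr10:79542801-79542900 the only DKO value was 0, in library 10, against a follicular DKO level of 70.5% to 88.1%. At chr5:66246301-66246400 the only DKO value was 90.4% and WT was at 25% and 50%. At none of these 4 were there 2 or more pro-B DKO values that all lay above every other pro-B library.

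Of the tiles with 2 or more values in each pro-B group, the 5 with the largest pro-B difference included 4 that lie in the regions above: chr14:34003301-34003400 (98.2 points), chr7:118067201-118067300 (97.4), chr3:88915801-88915900 (84.6) and chr5:123774301-123774400 (83.9). The other was chr7:139883901-139884000 (86.8). At chr3:88915801-88915900 limma gave an adjusted p of 0.935, with Tet3KO library 9 at 100% and library 7 at 0, so a large difference alone did not bring a call.

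At the other end were tiles where the pro-B DKO mean lay under WT. At chr13:30814601-30814700 pro-B WT was at 67.6%, 24% and 32.2% and DKO at 66.9%, 12.9% and 0, a difference of -14.7 points ± 19.5 (SE, limma adjusted p = 1.0). Its follicular WT was at 4.90% to 14.7% and follicular DKO at 39.2% to 63.1%. Its follicular WT libraries thus all lay below its pro-B WT libraries. At chr8:92991701-92991800 (-7.67 points), chr1:163098601-163098700 (-4.72), chr12:101243601-101243700 (-3.62) and chr2:168803601-168803700 (-2.91) pro-B DKO also overlapped WT. In all 5 of these tiles library 12 was at 0 and library 10 was the highest DKO library.

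The difference did not end at the tile. Among other tiles with values around the DKO-only tiles, those next to one (111 tiles) had pro-B means of 21% ± 5.12 in WT and 41.8% ± 7.48 in DKO, a difference of 20.9 points. Tiles at 200 to 500 bp (95 tiles) differed by 10.4 points in pro-B and 18.9 points in follicular cells. From 600 to 1000 bp (58 tiles) the difference was 0.12 points in pro-B and 2.05 in follicular cells, at 1100 to 2000 bp (97 tiles) 0.41 and 5.53, and at 2100 to 5000 bp (239 tiles) -0.05 and 3.45. The pro-B DKO and WT libraries did not overlap at the next tile and overlapped from 600 bp outwards.

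In this profile the DKO-only tiles were represented by 180 of them, so their levels differ slightly from those over the whole set. In pro-B WT the level was 8.73% at DKO-only tiles, 21% next to them, 29.8% at 200 to 500 bp, 25.1% at 600 to 1000 bp, 33.6% at 1100 to 2000 bp and 38.5% at 2100 to 5000 bp. In pro-B DKO it was 42.5%, 41.8%, 40.2%, 25.3%, 34% and 38.5% over the same steps. In follicular cells WT was at 11% at the tiles, 30.6% at 600 to 1000 bp and 41.7% at 2100 to 5000 bp, and DKO at 54.8%, 32.6% and 45.1%. In WT of both stages the DKO-only tiles were thus lower than every class of neighbours. In DKO of both stages they were higher than the classes at 600 bp and beyond, by most at 600 to 1000 bp. The rule chose these tiles, and not their neighbours, by the pro-B WT ceiling and by the follicular levels. Their low WT levels and high follicular DKO level thus follow in part from that choice. Only the pro-B knockout levels took no part in it. Of 125 eligible next tiles, 37 (29.6%) had the follicular DKO difference of 30 points without overlap, and by the rule a neighbour with that difference is not DKO-only because a single knockout is raised or pro-B WT exceeds the ceiling; all 37 had a raised single knockout. At 200 to 500 bp this was found at 26 of 105 tiles, at 600 to 1000 bp at 0 of 65, at 1100 to 2000 bp at 4 of 104 and at 2100 to 5000 bp at 6 of 248 (2.42%), beside 0.676% of eligible tiles. In follicular cells Tet3KO next tiles were at 30.1% and Tet2KO at 25.7%, beside 21.8% in WT.

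**Figure D5:**
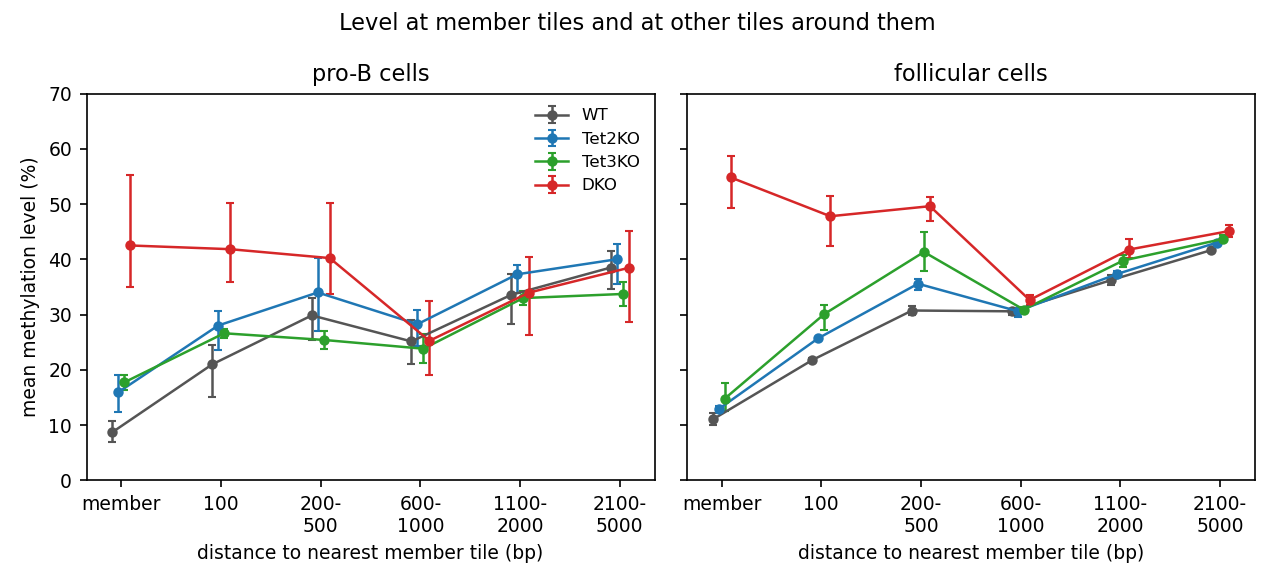
Mean methylation level (percent, vertical axis) at 180 of the DKO-only tiles and at other tiles by distance to the nearest DKO-only tile (base pairs, horizontal axis). Pro-B cells are on the left (library 8 left out) and follicular cells on the right. Points are means and bars run from the lowest to the highest library. Pro-B DKO is 20.9 points above WT at the next tile and 0.12 points above it at 600 to 1000 bp.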

How the data were processed

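RRBS was measured in 24 mouse libraries, and 16 RNA samples were not analysed here. The deposited table holds, for each 100 bp tile and library, a methylation fraction from 0 to 1 without coverage, per the file headers. The submitters' processing notes list Trim Galore and methylKit with no versions; the aligner and the minimum coverage are not given in the sources used here. Coordinates were taken as mm9, one of the builds those notes name, since chromosome 1 reaches 197193600 in the file. Fractions were multiplied by 100, and tiles without a value stayed missing. The depth being unknown, levels of 0 and 100% may come from few reads, and counting intervals cannot be given.

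The tiles and the regions named, and the rule itself, were chosen with earlier results of these data known. Regions of 2 or more tiles within 500 bp (12 by follicular difference), the 8 leading single tiles, the 5 largest and 5 smallest pro-B differences and 3 tiles on each side of the threshold were named; the tiles called by limma were added once their values were known. Limma 3.58.1 (R 4.3.3, version 1.17.8 of data.table) was fitted to the percent levels of the 12 pro-B libraries with genotype as the factor and a trended prior spread, over eligible tiles with 2 or more values in each group of a contrast, two-sided. Follicular libraries stayed out of the fit because they chose the tiles. The fit was also run on simulated pro-B levels. It called 78 of 100 tiles raised by 25 points, 85 of 100 raised by 40 points and 8 others. The simulated deviations were drawn from other tiles of similar level, so the spread of each tile was not kept. These shares therefore do not tell how often real differences of that size are called. Alternatives were logit levels, all 24 libraries, 2 groups only, sex as a covariate, centred libraries, other thresholds and left-out libraries. The set without the pro-B WT ceiling was added after seeing the data.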

Additional observations from a re-analysis of the deposited data

How the results depend on the processing

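Calls among DKO-only tiles depended on the spread estimate. With all 24 libraries in the limma fit the counts were 42 (6 as reported) for DKO against WT, 24 (5) against Tet2KO, 19 (4) against Tet3KO, 2 (0) for Tet2KO and 1 (0) for Tet3KO against WT, and 9 (2) for the interaction. Over all tiles tested they were 893 (39), 120 (20), 536 (61), 483 (23), 329 (27) and 195 (24) in the same order. That fit takes its spread in part from the follicular libraries that chose the tiles, so its counts are not independent of the choice. With only the 2 groups compared, the 3 DKO counts were 0, beside 5, 1 and 13 of all tiles tested. Centred libraries gave 3, 1 and 0 for DKO against WT, against Tet2KO and the interaction, and the same numbers over all tiles. Logit levels gave 2 against Tet3KO (48 of all tiles) and 1 for the interaction (41 of all tiles). Sex as a covariate gave 2 against Tet3KO (30 of all tiles). Dropping the demand for 12 follicular values gave 8 against Tet2KO (55 of all tiles). With single libraries left out the counts ran from 5 to 24 (DKO against WT), 6 to 24 (against Tet2KO), 4 to 15 (against Tet3KO), 0 to 1 (each single knockout against WT) and 1 to 9 (interaction), the highest without DKO library 11 for all DKO contrasts. Over all tiles tested they ran, in the same order, from 126 to 888, 68 to 491, 68 to 1554, 29 to 972 and 29 to 1222. Centring also turned the median Tet2KO minus WT difference to -1.31 points, since it moved the median of all tiles to -5.59 (-7.04 for DKO against WT). The causes were not tested. The pro-B DKO minus WT mean kept its sign throughout, at 26.7 to 37.1 points without single libraries (26.7 without library 10).

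The rule found 576 tiles at a DKO difference of 0.20, 104 at 0.40, 100 at a single-knockout ceiling of 0.05 and 369 at 0.15. With single libraries left out it found 172 to 420 tiles, 420 without follicular DKO library 23. Of 30 named regions and tiles, 6 had the other sign of the pro-B difference in at least 1 alternative. No paired analysis was possible because running numbers are not shared between the genotype groups, which are the groups compared; the match of pro-B and follicular libraries in sex and age joins stages of one genotype. Unknown depth limits every single-tile value.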
